A study of Saccharomyces cerevisiae W303 with 30 samples.

Results

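Transcription of 10 iron uptake genes of *Saccharomyces cerevisiae* was followed through 5 ways of removing Mediator tail subunits or Mot1 from the cell. The genes were FET3 (YMR058W), FTR1 (YER145C), FRE1 (YLR214W), FRE3 (YOR381W), ARN1 (YHL040C), SIT1 (YEL065W), ENB1 (YOL158C), FIT1 (YDR534C), FIT2 (YOR382W) and FIT3 (YOR383C), which are textbook targets of the transcription factor Aft1. They were taken by their identifiers from the 6692 genes counted, and were chosen from these libraries with their sense-strand counts in all 10 groups already known. Their sense-strand values are therefore given as a description and support nothing by themselves. All 10 passed the filter on low counts, as did 5844 genes in all.

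The study used nsRNA-seq, in which RNA made during a short pulse of 4-thiouracil (4tU) is biotinylated, pulled down and sequenced, and the counts reflect recent transcription more than stored mRNA. The 30 libraries form 10 groups of 3 biological replicates, all of MATa W303 cells grown in YPD at 30 °C and labeled for 6 min. WT and *med16*Δ (MED16 replaced by LEU2) received no further treatment. The other 4 strains carried the plant F-box protein OsTIR1 under the constitutive GPD1 promoter, with a LEU2 marker, and had Med16, Med15, Med15 with Med16, or Mot1 with Med16 fused to an auxin-inducible degron (IAA7), and each was treated with 0.5 mM 3-IAA or with its solvent DMSO for 30 min. They are called Med16-AID, Med15-AID, Med15/16-AID and Mot1/Med16-AID. Every W303 cell here also carried the mutant ade2, can1, his3, leu2, trp1 and ura3 alleles of that background, and *med16*Δ was in addition mutant in lys2. The deletion, LEU2 and lys2 therefore cannot be told apart between *med16*Δ and WT. In the degron strains the tags brought further markers, kanMX6 with Med16 and HIS3MX6 with Med15 and Mot1. One strain stood for each genotype, so the replicates are cultures of 1 strain and not separate strains. Fewer cells transcribing a gene and less transcription per cell cannot be told apart in such cultures.

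When iron is scarce, Aft1 enters the nucleus and switches on genes for taking iron up, and when iron suffices, iron-sulfur clusters passed on by the glutaredoxins Grx3 and Grx4 with Fra1 and Fra2 send it out again. Yeast takes up iron by a reductive and a non-reductive route. In the first, metalloreductases of the Fre family reduce ferric iron at the cell surface and the oxidase Fet3 with the permease Ftr1 carries it across the membrane. In the second, transporters of the Arn family take up whole iron-siderophore complexes, held in the cell wall by the mannoproteins Fit1, Fit2 and Fit3. Mediator relays activators to RNA polymerase II. Its tail module, which holds Med15, binds activators, Med16 links tail and core, and Mot1 strips TBP from DNA.

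All but FRE1 hold TGCACCC on either strand, the word taken here as the Aft1 motif. The stretches that hold every match in the 500 bases before each start codon are printed below, from 15 bases before the first match to 15 after the last. They are from the RefSeq R64 sequence of strain S288C (the sacCer3 build), 5′ to 3′ on the strand of the gene, with TGCACCC or its reverse complement GGGTGCA in capitals.
FET3, chrXIII:388556-388592, + strand: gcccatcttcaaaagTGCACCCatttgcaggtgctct
FTR1, chrV:461894-462120, - strand: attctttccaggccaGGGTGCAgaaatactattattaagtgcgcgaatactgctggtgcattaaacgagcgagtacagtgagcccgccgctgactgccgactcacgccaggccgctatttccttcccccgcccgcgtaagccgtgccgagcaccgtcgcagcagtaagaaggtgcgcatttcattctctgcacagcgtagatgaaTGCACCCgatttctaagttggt
FRE3, chrXV:1055103-1055139, + strand: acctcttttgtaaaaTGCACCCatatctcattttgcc
ARN1, chrVIII:21210-21246, - strand: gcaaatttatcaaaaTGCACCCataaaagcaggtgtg
SIT1, chrV:27454-27490, + strand: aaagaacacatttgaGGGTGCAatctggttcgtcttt
ENB1, chrXV:21427-21519, - strand: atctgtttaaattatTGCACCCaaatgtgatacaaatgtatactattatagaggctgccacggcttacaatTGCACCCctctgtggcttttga
FIT1, chrIV:1505061-1505199, - strand: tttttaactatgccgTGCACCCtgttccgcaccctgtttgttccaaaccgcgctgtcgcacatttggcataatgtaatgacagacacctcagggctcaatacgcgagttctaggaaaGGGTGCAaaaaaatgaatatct
FIT2, chrXV:1059185-1059421, + strand: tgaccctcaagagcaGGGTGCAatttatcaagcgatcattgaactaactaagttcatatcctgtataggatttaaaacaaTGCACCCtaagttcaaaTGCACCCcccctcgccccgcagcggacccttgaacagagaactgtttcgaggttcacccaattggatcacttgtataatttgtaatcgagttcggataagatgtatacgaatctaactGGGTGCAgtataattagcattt
FIT3, chrXV:1061218-1061355, - strand: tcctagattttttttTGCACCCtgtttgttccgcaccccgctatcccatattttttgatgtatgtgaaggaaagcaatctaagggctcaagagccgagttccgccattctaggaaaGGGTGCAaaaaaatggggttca

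The motif was found in 9 of the 10 genes, against 2.33% of 6002 annotated genes (140 genes) in the same window. Of 18 other Aft1 or Aft2 targets, 13 held it. FRE1 held none. Both lists were written as known targets of Aft1 or Aft2, so their shares describe the lists and test nothing. In the window from 250 bases before to 50 after the start codon, the motif was present in 6 of the 10 genes, 7 of the 18 other targets and 1.3% of all genes. Of the 16 matches before the 10 genes, 10 read along the gene's strand and 6 along the other. FIT2 had 4 matches, 17 bases apart at the closest pair, FTR1, ENB1, FIT1 and FIT3 had 2 each, and FET3, FRE3, ARN1 and SIT1 had 1. FIT1 and FIT3 had the same arrangement, with matches at -284 and -182 and at -285 and -184 from the start codon, the first along the gene and the second against it. Over the 500 bases they aligned at 58.9% of columns, against 52.6% for FIT1 and FIT2 and 51.5% for FIT2 and FIT3. The shorter word CACCC, which lies inside the motif, was found in 10 of 10 genes against 33.5% of all genes, and a TATAAA word in 4 of 10 against 60.5%. A match is a run of letters and not a measured binding site.

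**Figure D1:**
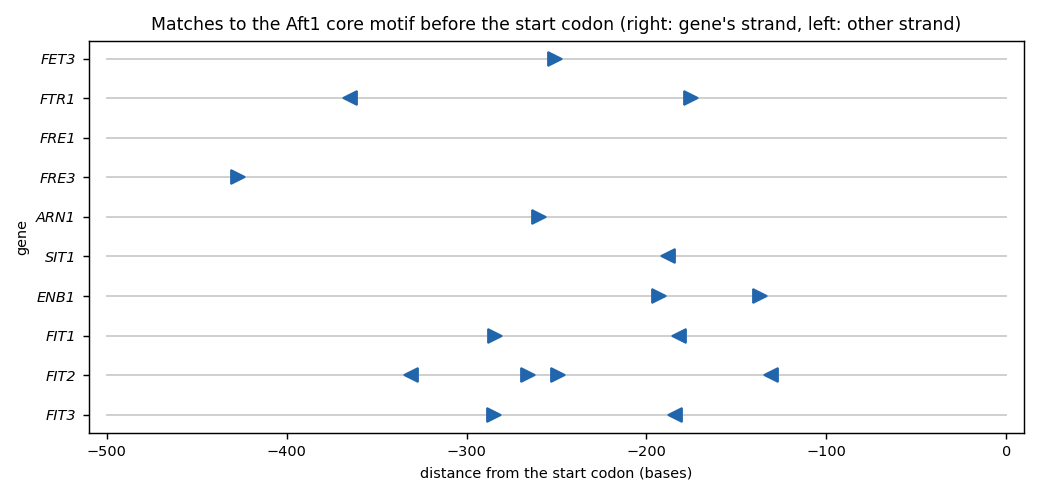
Position of each TGCACCC match in the 500 bases before the start codon of the 10 genes, as distance in bases (x axis), with triangles pointing right for the gene's strand and left for the other. 9 of the 10 lines hold at least 1 match and the line of FRE1 holds none. FIT1 and FIT3 have the same 2-match arrangement.

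The genes also cluster near chromosome ends. Of the 10, 7 start or stop within 40 kb of an end, against 8.83% of 6002 genes (530). ARN1 lies 19.1 kb, ENB1 19.5 kb, FIT1 27.0 kb, SIT1 27.7 kb, FIT3 30.2 kb, FIT2 31.3 kb and FRE3 33.6 kb from the end, while FTR1, FET3 and FRE1 lie 115, 389 and 508 kb away. FRE3, FIT2 and FIT3 sit side by side on the right arm of chromosome XV, with YOR381W-A between FRE3 and FIT2, and FIT2 and FIT3 converge over a gap of 448 bases. Reads of FIT1 are the least certain, since 84.8% of its 38-base words occur once in the genome, against 99.7% for FIT3 and 100% for the other 8 genes. Reads that map to several places were not counted.

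The libraries held 3838508 to 6912702 counts on genes (median 4731420), of which the 10 genes took 0.149 to 0.306%. MED16 had 9 to 22 counts in *med16*Δ and 783 to 967 in WT, while a degron acts on the protein, so RNA does not check the depletions. MOT1 RNA was at 767 CPM on average in Mot1/Med16-AID with DMSO and 1196 with 3-IAA, against 119 to 323 in the other 8 groups, so its level already stood apart in the control cultures of that strain. All levels below are CPM, that is counts scaled to a common library size by the library totals and TMM factors, so each is relative to the bulk of *S. cerevisiae* genes. Spike-in size factors recovered from the study's DESeq2 output raised the median of all genes by 0.18 (log2) in *med16*Δ, 0.20 in Med16-AID, 0.22 in Med15-AID and 0.11 in Med15/16-AID. They also moved the share of called genes that were called higher from 45.4 to 62.2%, from 36.5 to 88.0%, from 26.8 to 90.2% and from 33.2 to 68.6%, and none were at hand for Mot1/Med16-AID. The WT, *med16*Δ and Med16-AID libraries form 1 set of files and the other strains a second, so strain and set cannot be told apart between the sets.

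In WT cells the genes covered a wide range of levels per length. FRE1 stood at 447 CPM per kb, FET3 at 305, FTR1 at 294, ARN1 at 213 and SIT1 at 101. ENB1 followed at 49.5 CPM per kb, FIT2 at 28.9, FRE3 at 28.2, FIT3 at 24.0 and FIT1 at 4.40. FRE1, FET3 and FTR1 of the reductive route thus had the highest levels per length, and the cell wall genes were among the lowest. FIT1 had 7 to 54 counts per library over the whole study, so its values are the least precise.

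FET3 encodes the multicopper oxidase of the high-affinity iron transporter. Its level was 791, 696 and 691 CPM in the 3 Med15-AID libraries with DMSO and 417, 413 and 413 with 3-IAA. In Med15/16-AID it was 589, 581 and 564 CPM with DMSO and 343, 314 and 308 with 3-IAA. In both strains every treated culture lay below every control culture, at log2 fold changes of -0.81 ± 0.06 and -0.84 ± 0.06 (SE, n = 3 and 3), or 0.571 and 0.558 of the control. Without MED16 the level was 379, 374 and 441 CPM, against 580, 618 and 549 in WT. These groups did not overlap either (log2 fold change -0.55 ± 0.11), although the change was -0.36 and no longer called with the spike-in factors. Med16-AID gave 698, 739 and 642 CPM with 3-IAA and 637, 741 and 536 with DMSO, which overlap. Mot1/Med16-AID held the highest level of any group with DMSO (861, 826 and 861 CPM) and 775, 729 and 804 CPM with 3-IAA, groups that did not overlap but differed by only -0.14 ± 0.06 (log2), which did not pass. It was called there with the DESeq2 Wald test (-0.15), with unstranded counts (-0.16) and without 3-IAA replicate 3 (-0.17).

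FTR1 encodes the permease that pairs with Fet3. Its level in Med15-AID was 608, 577 and 538 CPM with DMSO and 362, 426 and 371 with 3-IAA, at a log2 fold change of -0.57 ± 0.07. In Med15/16-AID it was 378, 398 and 354 CPM against 234, 217 and 207, at -0.78 ± 0.07. In *med16*Δ it was 230, 242 and 246 CPM against 377, 355 and 341 in WT, at -0.58 ± 0.11. None of these 3 pairs of groups overlapped, and the fold in *med16*Δ was -0.41 and not called with the spike-in factors. Med16-AID was less clear, with 344, 383 and 329 CPM with 3-IAA and 536, 478 and 370 with DMSO. The groups overlap, and the log2 fold change of -0.39 ± 0.11 lost its call without either of 2 libraries of each treatment, with library totals and with the spike-in factors (-0.20). In Mot1/Med16-AID the level was 432, 382 and 445 CPM against 370, 403 and 375 (0.13 ± 0.07, not called). FET3 and FTR1 had a correlation of 0.75 over the 10 group means of log2(CPM + 0.5), given as a description of points that share strains and scaling.

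FRE1 encodes the main surface metalloreductase, which reduces copper as well as iron and answers to the copper sensor Mac1 besides Aft1. It was 265, 269 and 280 CPM in Med15-AID with DMSO and 210, 140 and 230 with 3-IAA, so the second 3-IAA culture was the lowest and the groups stayed apart (log2 fold change -0.49 ± 0.10). In Med15/16-AID it was 407, 379 and 397 CPM with DMSO and 258, 246 and 241 with 3-IAA (-0.67 ± 0.10). In *med16*Δ its level of 866, 882 and 887 CPM lay within the WT range of 852 to 1043 (-0.07 ± 0.09). It was -0.08 ± 0.09 in Med16-AID and -0.13 ± 0.10 in Mot1/Med16-AID, and neither passed. FRE3 encodes a reductase of iron bound to siderophores. It was at 51.4, 40.3 and 49.0 CPM in *med16*Δ and 62.3, 54.0 and 64.2 in WT, which did not overlap. It passed in no comparison of the main fit, at log2 fold changes from -0.36 ± 0.13 in *med16*Δ to 0.29 ± 0.13 in Med15/16-AID. The second was called with the spike-in factors (0.40), with library totals (0.43) and without 3-IAA replicate 2 (0.41). The first was called with all 30 libraries in 1 fit (-0.36). In Mot1/Med16-AID FRE3 was called without DMSO replicate 1 (0.31).

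ARN1 encodes a transporter of ferrichrome-type siderophores and had the widest span of the 10 genes, 9.30-fold from the highest to the lowest group mean. Without MED16 it was at 788, 861 and 1148 CPM, and in WT at 384, 392 and 426, a log2 fold change of 1.22 ± 0.11 or 2.32-fold. In Mot1/Med16-AID it was at 273, 275 and 290 CPM with 3-IAA and 154, 145 and 151 with DMSO, a log2 fold change of 0.90 ± 0.08 or 1.86-fold. In both comparisons the groups lay far apart. The other 3 comparisons gave -0.02 ± 0.12 in Med16-AID, 0.06 ± 0.08 in Med15-AID and -0.19 ± 0.08 in Med15/16-AID, none of them called. In Med15-AID the spike-in factors gave 0.27 and a call.

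SIT1, a transporter of ferrioxamine B, and ENB1, a transporter of enterobactin, moved the other way in *med16*Δ. SIT1 was at 107, 108 and 119 CPM against 191, 170 and 213 in WT (log2 fold change -0.79 ± 0.09). ENB1 was at 63.9, 62.0 and 71.1 CPM against 92.0, 90.9 and 87.4 (-0.46 ± 0.09). Neither pair overlapped. With the spike-in factors SIT1 was -0.61 and still called, and ENB1 was -0.28 and not called. In Mot1/Med16-AID the pair parted: SIT1 was at 253, 238 and 246 CPM with 3-IAA and 219, 182 and 205 with DMSO (0.28 ± 0.07), while ENB1 was at 69.4, 63.6 and 69.8 CPM against 96.4, 92.2 and 85.2 (-0.43 ± 0.08). Both pairs of groups stayed apart. In the depletions of Med16, Med15 or both, SIT1 lay between -0.15 ± 0.09 and -0.11 ± 0.06 and ENB1 between -0.03 ± 0.08 and 0.11 ± 0.07, none called, although ENB1 was 0.32 and called in Med15-AID with the spike-in factors. The 3 siderophore transporters therefore did not share 1 pattern, and ARN1 and SIT1 had a correlation of -0.84 over the 10 group means.

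FIT2 and FIT3 encode cell wall mannoproteins that hold siderophores. FIT2 was at 28.9, 37.2 and 66.9 CPM in *med16*Δ and at 13.4, 13.1 and 13.5 in WT, a log2 fold change of 1.71 ± 0.26 or 3.27-fold. FIT3 was at 33.4, 26.6 and 28.8 CPM against 15.8, 12.8 and 15.6, a log2 fold change of 1.01 ± 0.17 or 2.01-fold. All *med16*Δ cultures lay above all WT cultures for both genes, and the third *med16*Δ culture was the highest for FIT2. In Med15-AID, FIT2 was at 27.1, 30.9 and 31.7 CPM with 3-IAA and 23.3, 24.4 and 19.0 with DMSO (0.43 ± 0.12), a call lost without 3-IAA replicate 2 or 3 or DMSO replicate 3, at log2 fold changes of 0.40, 0.38 and 0.32. In Mot1/Med16-AID, FIT3 was at 13.01, 6.31 and 10.5 CPM with 3-IAA and 17.5, 13.3 and 16.1 with DMSO (-0.66 ± 0.20), a call lost without the second 3-IAA culture (-0.41).

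FIT1, the third of these mannoproteins, had too few counts for firm statements. In Med16-AID it had 42, 25 and 23 counts with 3-IAA and 8, 12 and 8 with DMSO (log2 fold change 1.30 ± 0.34). In Mot1/Med16-AID it had 7, 11 and 12 counts with 3-IAA and 26, 15 and 21 with DMSO (-1.02 ± 0.34). Both pairs stayed apart and both were called, and the first call was lost without 3-IAA replicate 1 or DMSO replicate 1 or 3 (1.05, 1.20 and 1.23), the second without replicate 1 of 3-IAA or of DMSO (-0.81 and -0.83). In *med16*Δ it had 54, 26 and 27 counts against 18, 29 and 38 in WT, which overlap.

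**Figure D2:**
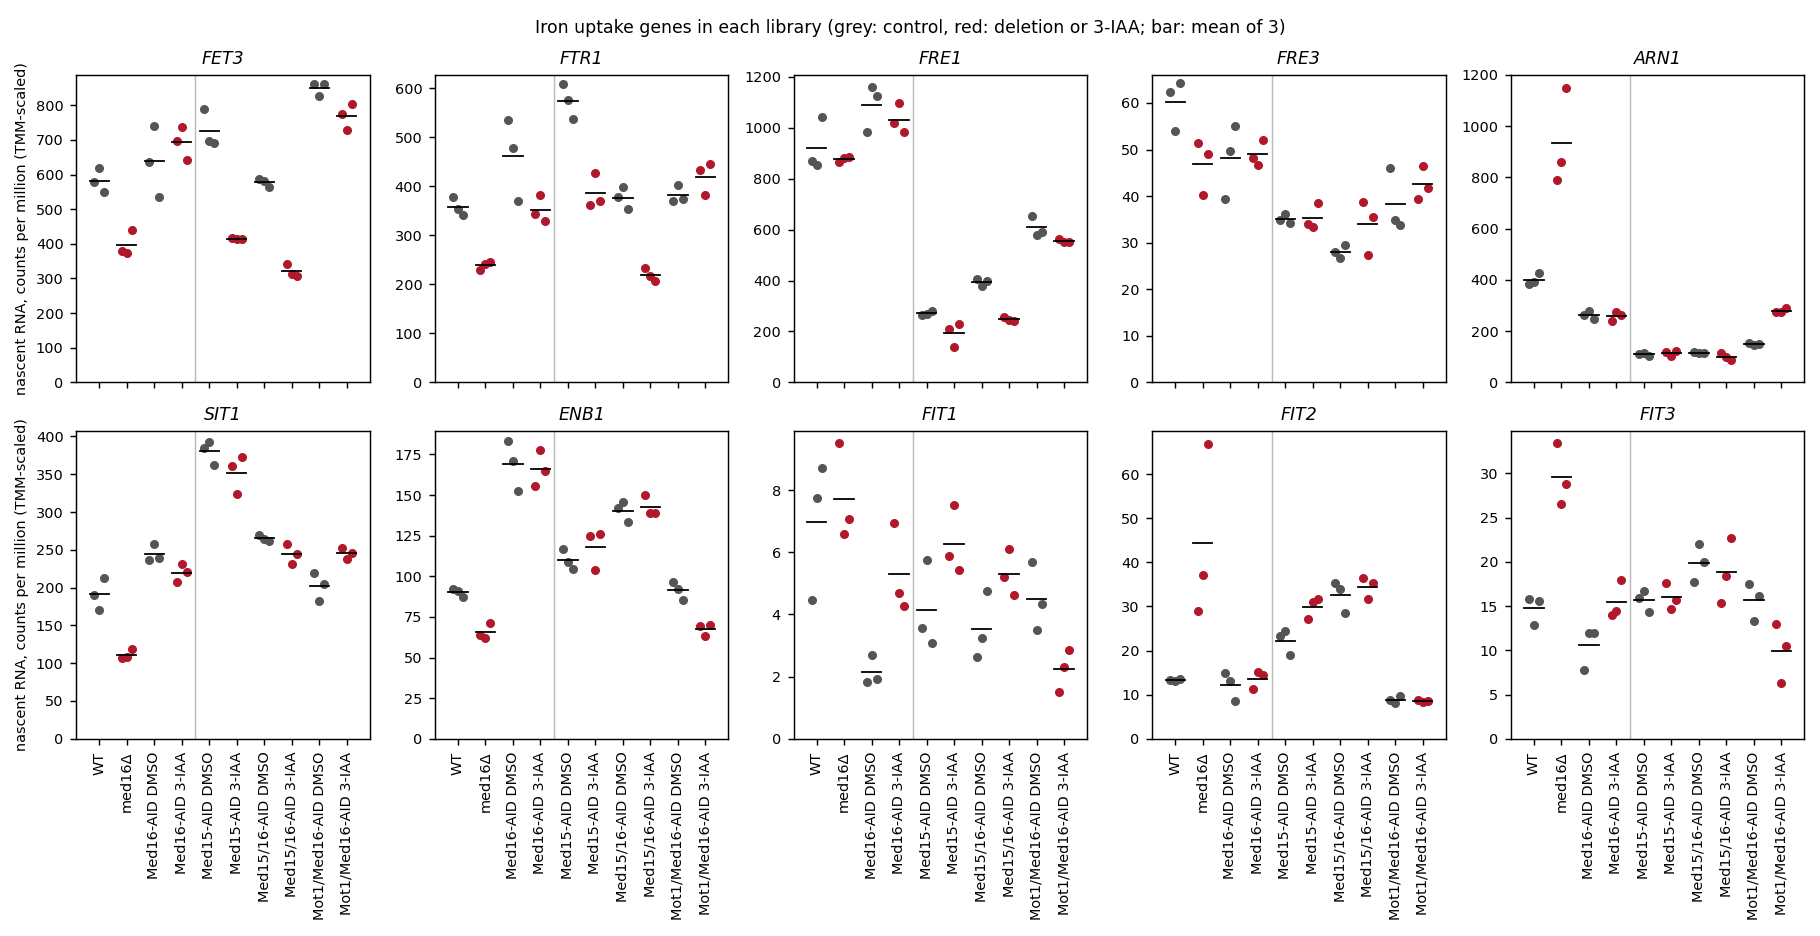
TMM-scaled CPM (y axis, linear, from 0) of the 10 genes in each of the 30 libraries, by group (x axis), with a bar at the mean of 3 and a line between the 2 sets of files. ARN1, FIT2 and FIT3 are highest in *med16*Δ, FET3 and FTR1 drop with 3-IAA in Med15-AID and Med15/16-AID, and FRE1 is higher in every group of the first set than in any of the second.

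Counted over the list, 3 genes rose and 4 fell in *med16*Δ, where 7.77% of all genes tested rose and 9.33% fell (edgeR quasi-likelihood F-test, Benjamini-Hochberg adjusted p under 0.05 over 5844 genes). With the spike-in factors 3 rose and 1, SIT1, fell. In Med16-AID 1 rose and 1 fell, against 3.94% and 6.84% of all genes. In Med15-AID 1 rose and 3 fell, against 3.61% and 9.86%, and in Med15/16-AID none rose and 3 fell, against 3.95% and 7.96%. In Mot1/Med16-AID 2 rose and 3 fell, against 20.8% and 23.6%. Since the genes were chosen with these contrasts known, nothing is read from the counts beside those shares. The median log2 fold change of the 10 genes was -0.21, 0.00, 0.02, -0.12 and -0.09 in the same order, against 0.01, 0.01, 0.00, 0.01 and -0.02 over all genes tested, so the list had no common direction. Of the 10 genes, 9 passed in at least 1 comparison, as did 59.5% of all genes, and SIT1, FIT1 and FIT3 rose in one and fell in another, as did 5.54% of all genes. The Med15-AID counts became 4 up and 3 down with the spike-in factors, as ARN1, ENB1 and FIT1 joined.

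**Figure D3:**
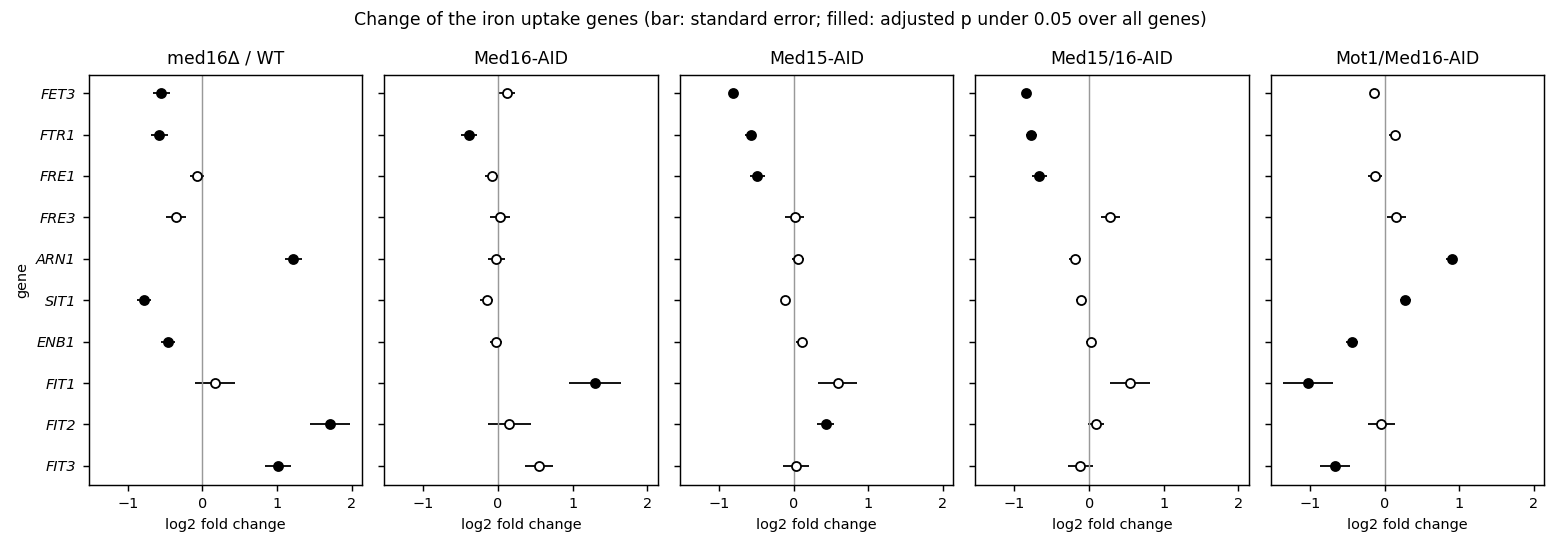
Log2 fold change (x axis) of the 10 genes (y axis) in the 5 comparisons, with the standard error as bar and filled points for an adjusted p under 0.05 over all genes. FET3 lies at -0.81 and -0.84 and FTR1 at -0.57 and -0.78 in Med15-AID and Med15/16-AID, and ARN1 at 1.22 in *med16*Δ and 0.90 in Mot1/Med16-AID.

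The control cultures already differed from strain to strain. Med16-AID with DMSO, compared with WT, had 7 of the 10 genes past the threshold, where 48.0% of all genes passed. ENB1 was higher there by 0.91 ± 0.09 (log2; 183, 171 and 153 CPM against 92.0, 90.9 and 87.4), and ARN1 was lower at -0.61 ± 0.12 (264, 277 and 247 CPM against 384, 392 and 426). The tag with its kanMX6 marker, OsTIR1 with its LEU2 marker and DMSO all separate these groups and cannot be told apart. Between the DMSO cultures of Med15/16-AID and Med15-AID, 7 genes differed, against 42.0% of all genes, with FTR1 at -0.61 ± 0.07 and SIT1 at -0.52 ± 0.07 the lowest and FIT2 at 0.55 ± 0.12 and FRE1 at 0.54 ± 0.10 the highest. Between the DMSO cultures of Mot1/Med16-AID and Med15/16-AID, again 7 differed, against 49.4%. FIT2 was the farthest there, at 8.75, 8.19 and 9.72 CPM against 35.4, 34.0 and 28.6, a log2 difference of -1.86 ± 0.14.

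For FIT2 the strains differed more with DMSO than any of them did with 3-IAA. Its DMSO means ran from 32.7 CPM in Med15/16-AID to 8.89 in Mot1/Med16-AID, both of the second set of files. It passed after 3-IAA in Med15-AID only, by 0.43 on the log2 scale. Its full span of 5.13-fold ran from *med16*Δ (44.3 CPM) to Mot1/Med16-AID with 3-IAA (8.64), so it includes the deletion and a treated group. FRE1 spanned 5.63-fold, and its 4 highest groups, 1089, 1032, 922 and 878 CPM, were the 4 of the first set of files. The full spans of FIT2 and FRE1, and the orders of ARN1 and SIT1 below, cross both sets, where strain and set cannot be told apart. The order of the ARN1 means was *med16*Δ (932 CPM), WT (401), Mot1/Med16-AID with 3-IAA (279), Med16-AID with DMSO (263) and with 3-IAA (259), Mot1/Med16-AID with DMSO (150), and then 100 to 116 CPM in the 4 groups of Med15-AID and Med15/16-AID, whose ranges overlap from one to the next. The SIT1 means ran from 380 CPM in Med15-AID with DMSO to 111 in *med16*Δ, with WT (191) next to last and overlapping Mot1/Med16-AID with DMSO (202). For FIT1 every neighbour in the order of the means overlapped the next.

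Contrasting the responses themselves, Med16-AID differed from *med16*Δ for 5 genes, against 6.45% of all genes. ARN1 (-1.24 ± 0.16) and FIT2 (-1.56 ± 0.40) responded less upward to acute depletion, and FET3 (0.67 ± 0.15), SIT1 (0.63 ± 0.13) and ENB1 (0.43 ± 0.13) less downward. With the spike-in factors only the first 2 kept the call, and ENB1 lost it in 9 and FIT2 in 6 of 12 fits without 1 library, any WT culture among them for both. Between WT and *med16*Δ, LEU2 and lys2 differ as well, while Med16-AID was compared within 1 strain. Acute against lasting loss of Med16 cannot be told apart from these in the contrast. The response of Med15/16-AID differed from that of Med15-AID for none of the 10 genes, against 0.359% of all genes. The largest difference was FIT2 at -0.34 ± 0.16, and for FET3 and FTR1 it was -0.03 ± 0.09 and -0.20 ± 0.10. The response of Mot1/Med16-AID differed from that of Med15/16-AID for 7 genes, against 27.4% of all genes, at 1.09 ± 0.11 for ARN1, 0.91 ± 0.10 for FTR1, 0.70 ± 0.09 for FET3, 0.53 ± 0.14 for FRE1 and 0.39 ± 0.10 for SIT1, and at -0.46 ± 0.11 for ENB1 and -1.57 ± 0.43 for FIT1. Med16 was depleted in both strains, and they differ in Mot1 as well as Med15.

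Over the 10 group means the genes did not follow each other. The 45 pairs had correlations of -0.84 to 0.80 with a median of -0.09, 8 above 0.5 and 10 below -0.5, and the points share strains, files and scaling. FIT2 and FIT3, neighbours on chromosome XV, gave the highest value, followed by FRE1 and FRE3 (0.78) and ARN1 and FRE3 (0.77), and FET3 and FIT2 gave -0.82. The 5 other genes most like the mean profile of the 10 were CCA1 (0.96), STE7 (0.96), NUP53 (0.95), RXT2 (0.94) and AAN1 (0.93), while the 10 genes themselves reached only -0.60 (SIT1) to 0.75 (ARN1) against it.

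Antisense counts were a readout the choice of genes had not used. In *med16*Δ they rose over FET3, FTR1, ARN1 and FRE3, that is 4 of the 7 genes with enough antisense counts. Of all 3497 genes tested 7.09% changed, 96 of them up and 152 down. ARN1 passed the filter on low antisense counts only through its *med16*Δ libraries, so its call is a description and supports nothing. Over FET3 the antisense level was 16.9, 16.7 and 14.4 CPM in *med16*Δ and 5.19, 5.35 and 6.19 in WT (1.52 ± 0.24 on the log2 scale, edgeR adjusted p = 1.94e-06 over the 3497 genes). Over FTR1 it was 11.8, 9.87 and 10.5 CPM against 3.96, 3.74 and 2.29 (1.70 ± 0.28, edgeR adjusted p = 6.54e-06). Over these 2 genes antisense counts went up while sense counts went down. With the spike-in factors the sense changes of FET3 (-0.36) and FTR1 (-0.41) were not called. Over FRE3 it was 5.99, 7.60 and 8.13 CPM against 0.742, 1.87 and 0.918 (2.6 ± 0.39, edgeR adjusted p = 5.48e-07). ARN1 had 43, 21 and 16 antisense counts against 0, 3 and 0, and its sense counts rose as well. The ratio of its antisense counts after scaling was 24.1, with an exact 95% counting interval of 7.95 to 119. All 4 calls held without each library in turn and with the spike-in factors. FIT2, with 4 to 8 antisense counts against 0 to 2, did not pass (edgeR adjusted p = 0.0704) but was called with the spike-in factors (0.0486) and without *med16*Δ replicate 1 (0.0291). Not called either were SIT1 (0.756) and FRE1 (0.879).

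In Med15/16-AID antisense counts rose over FET3 and FTR1, where 5.95% of the 3497 genes changed, 149 of them up and 59 down. FET3 was at 9.996, 8.88 and 10.8 CPM with 3-IAA and 4.81, 4.68 and 4.92 with DMSO (log2 fold change 1.03 ± 0.20, edgeR adjusted p = 0.000238), again with lower sense counts. FTR1 was at 3.38, 4.54 and 4.41 CPM against 2.62, 1.42 and 1.64 (1.10 ± 0.31, edgeR adjusted p = 0.0210). The FTR1 call was lost without 4 of the 6 libraries in turn (replicate 2 or 3 of DMSO or of 3-IAA, edgeR adjusted p 0.0638 to 0.126) and with TMM factors of the antisense counts (0.0789). In Med15-AID, where 3.52% of genes changed, FET3 was at 7.06, 6.06 and 7.68 CPM against 4.19, 4.61 and 3.84 and did not pass (0.72 ± 0.23, edgeR adjusted p = 0.0632), but passed with the spike-in factors. No gene of the 7 passed in Med16-AID (background 2.09%, 1 at an unadjusted p under 0.05) or in Mot1/Med16-AID (20.9%, 0 at an unadjusted p under 0.05). Differences between the comparisons in antisense counts were not tested.

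Antisense counts made up 5.69% of all counts on genes and 1.11% for FET3, 1.23% for FTR1, 0.338% for ARN1 and 5.77% for FRE3. FIT3 had 1 antisense count beside 2436 sense counts. The nearest RefSeq gene on the 3′ side lies on the same strand for FET3 (SEN15, 366 bases away), FTR1 (UBP5, 302 bases) and FRE3 (YOR381W-A, 742 bases), and it converges on ARN1 (YHL041W, 1246 bases). The part of longer transcripts of neighbours in these counts was not tested.

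**Figure D4:**
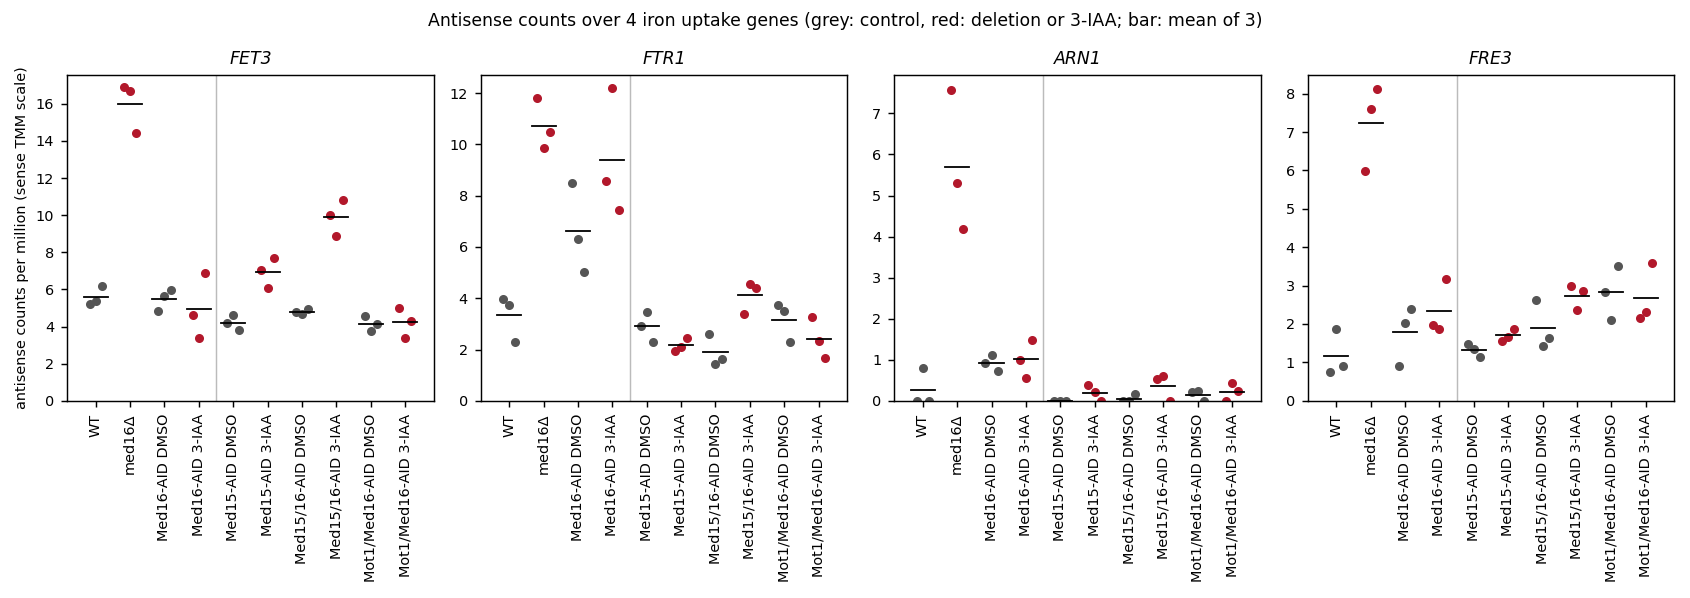
Antisense counts over FET3, FTR1, ARN1 and FRE3 (y axis, CPM on the scale of the sense counts, from 0) in the 30 libraries by group (x axis), with a bar at the mean of 3 and a line between the 2 sets of files. The 3 *med16*Δ cultures lie above the WT cultures for each gene, and the 3-IAA cultures of Med15/16-AID lie above their DMSO cultures for FET3 and FTR1.

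Aft1 and Aft2 have further targets, and 18 of these were followed in the same fit, from a list written with earlier results of these data known. In *med16*Δ 4 rose and 8 fell, with a median of -0.20, where 7.77% of all genes rose and 9.33% fell. With library totals 5 rose and 5 fell. FET4 was 0.46 and called, but with unstranded counts it was -0.28 and called, the opposite direction. The HMX1 call (0.42) was lost without WT replicate 2 or 3 or *med16*Δ replicate 1 or 2. The CCC2 call (-0.27) was lost without WT replicate 1 or 3 or *med16*Δ replicate 2. FRE4, a siderophore reductase, fell by 1.43 (log2 fold change, SE 0.14, edgeR adjusted p = 5.13e-07), and TIS11, which encodes the mRNA decay factor Cth2 that spares iron, fell by 1.20 (SE 0.15, edgeR adjusted p = 1.30e-05). ISU2, an iron-sulfur cluster scaffold, was at -0.88 ± 0.13 and MRS4, a mitochondrial iron carrier, at -0.63 ± 0.09. ISU2 fell in all 5 comparisons, by 0.58 to 0.88 on the log2 scale. FRE4 fell in all but Mot1/Med16-AID, by 0.41 in Med16-AID, 0.77 in Med15-AID and 0.63 in Med15/16-AID. The FRE4 call in Med16-AID was lost without any 1 of 5 of the 6 libraries, all but DMSO replicate 1, and with library totals (-0.30). With the spike-in factors 3 rose and 3 fell in *med16*Δ, MRS4 no longer among them, and none passed in Med16-AID, ISU2 and FRE4 included.

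In Med16-AID 1 of these 18 rose and 3 fell, with a median of 0.02 (all genes 3.94% and 6.84%). In Med15-AID 2 rose and 4 fell (all genes 3.61% and 9.86%), the largest change being ISU1, the other scaffold gene, at -1.20 ± 0.07 (edgeR adjusted p = 2.02e-13). In Med15/16-AID 2 rose and 4 fell (all genes 3.95% and 7.96%), led by ISU1 at -0.66 ± 0.07 and FRE4. The response of ISU1 differed between these 2 strains by 0.53 ± 0.09 (edgeR adjusted p = 0.00300). With the spike-in factors Med15-AID had 13 up and 3 down, and Med15/16-AID 5 up and 4 down. In Mot1/Med16-AID 7 rose and 5 fell (all genes 20.8% and 23.6%), led by VHT1, the biotin transporter, at 0.83 ± 0.06 (edgeR adjusted p = 9.74e-11), with TIS11 at 0.57 ± 0.09, ISU2 at -0.60 ± 0.10 and MRS4 at -0.57 ± 0.08. VHT1 also rose in Med15-AID (0.54 ± 0.06) and Med15/16-AID (0.53 ± 0.06).

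**Figure D5:**
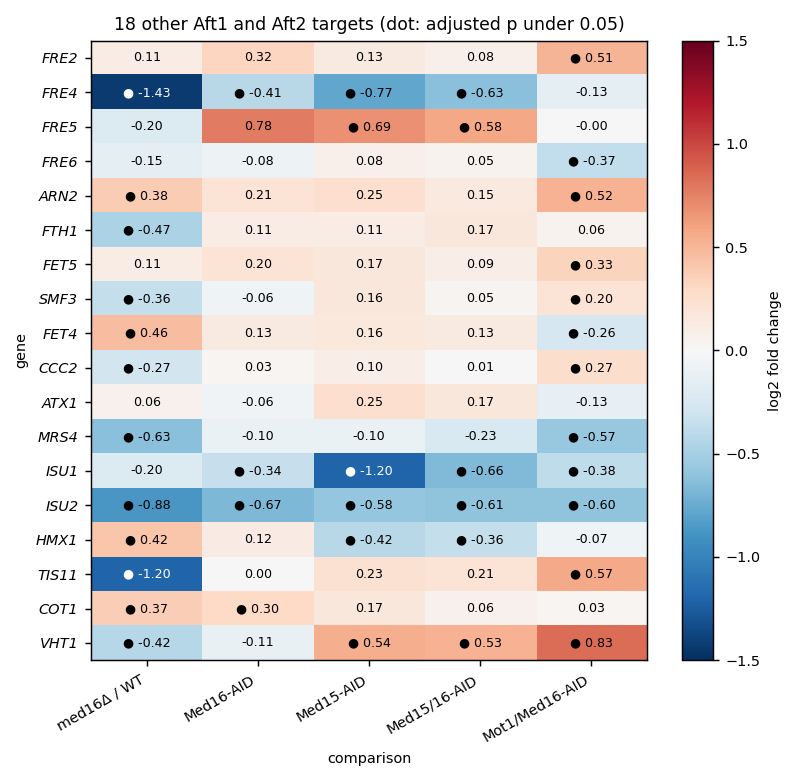
Log2 fold change of 18 other Aft1 and Aft2 targets (rows) in the 5 comparisons (columns), as colour and number, with a dot for an edgeR adjusted p under 0.05 over all genes. ISU2 is lower in all 5 columns, FRE4 is lower in the first 4 and VHT1 is higher in the last 3.

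Of 10 genes listed for iron sensing and the response to iron, 1 fell in *med16*Δ, where 9.33% of all genes fell. It was CTH1, the relative of TIS11, at -0.53 ± 0.09. In Med16-AID 1 rose (all genes 3.94%), YAP5, the activator for high iron, at 0.50 ± 0.14, a call lost without 3-IAA replicate 2 or 3 or DMSO replicate 2. In Med15-AID 1 fell (all genes 9.86%), AFT2 at -0.27 ± 0.06, and in Med15/16-AID 1 rose (all genes 3.95%), GRX3 at 0.28 ± 0.07. CTH1 was -0.37 and AFT2 -0.06 with the spike-in factors, neither called, and AFT2 was not called with library totals either (-0.08). In Mot1/Med16-AID 3 rose and 4 fell (all genes 20.8% and 23.6%), led by FRA2 at 0.37 ± 0.10, the vacuolar iron importer CCC1 at -0.31 ± 0.06, TYW1 at 0.31 ± 0.06 and FRA1 at -0.30 ± 0.06. AFT1 itself was at 147 CPM on average in *med16*Δ and 181 in WT and was not called there, and was lower at -0.30 ± 0.08 in Mot1/Med16-AID (edgeR adjusted p = 0.00561). Without DMSO replicate 3 AFT1 was -0.18, and without 3-IAA replicate 1 FRA2 was 0.21, and neither was then called.

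Of 15 enzymes that use iron, 3 rose and 4 fell in *med16*Δ (all genes 7.77% and 9.33%), led by SDH2 of succinate dehydrogenase at 1.15 ± 0.12, RIP1, the Rieske protein, at 0.88 ± 0.10, LEU1 of leucine synthesis at -0.82 ± 0.08 and SDH4 at 0.76 ± 0.13. LEU1 belongs to the pathway of the LEU2 marker that replaced MED16, and WT carries only the mutant leu2 allele. LEU1 was at 136 CPM on average in *med16*Δ, 239 in WT and 114 in Med16-AID with DMSO, which has LEU2 and the tagged MED16 gene (-1.07 ± 0.08 against WT, edgeR adjusted p = 3.57e-08), and in *med16*Δ the marker and the deletion cannot be told apart. In Med16-AID 1 rose and 2 fell (all genes 3.94% and 6.84%), namely BIO2, biotin synthase, at 0.50 ± 0.13, ERG3 of sterol synthesis at -0.65 ± 0.08 and ACO1, the aconitase, at -0.51 ± 0.11. The BIO2 call was lost without 3-IAA replicate 1 or DMSO replicate 3, and with the spike-in factors ERG3 (-0.43) and ACO1 (-0.28) were not called. In Med15-AID 2 rose and 4 fell (all genes 3.61% and 9.86%), led by ACO1 at -1.31 ± 0.07 and BIO2 at 0.98 ± 0.08, and in Med15/16-AID 1 rose and 4 fell (all genes 3.95% and 7.96%), led by BIO2 at 0.83 ± 0.07 and ACO1 at -0.68 ± 0.07. In Mot1/Med16-AID 4 rose and 3 fell (all genes 20.8% and 23.6%), led by LEU1 at 0.90 ± 0.06 and BIO2 at 0.73 ± 0.08.

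Of 7 genes of copper and zinc uptake, 1 rose and 1 fell in *med16*Δ, 1 fell in Med16-AID and in Med15-AID, none passed in Med15/16-AID, and 2 rose and 1 fell in Mot1/Med16-AID. The shares of all genes that rose and fell are those given above, 20.8% and 23.6% in Mot1/Med16-AID and under 10% each way in the other 4. The high-affinity copper transporter CTR1 was the one that fell in each of these 4, at -0.55 ± 0.13, -0.43 ± 0.13, -0.77 ± 0.15 and -0.40 ± 0.14 in that order, and it was -0.32 and not called in Med15/16-AID. In Med15-AID its level was 52.7, 112 and 118 CPM with 3-IAA, from lowest to highest, and 157 to 169 with DMSO. Without the lowest culture, 3-IAA replicate 2, the value was -0.49 and still called (edgeR adjusted p = 0.000161). The *med16*Δ call was lost without WT replicate 3 (-0.37), the Med16-AID call without 3-IAA replicate 1 or 2 or DMSO replicate 2 or 3 (-0.32 to -0.47), and the Mot1/Med16-AID call without DMSO replicate 1 or 3 or 3-IAA replicate 3 (-0.35 to -0.39) and with the DESeq2 Wald test. CTR1 was -0.37 in *med16*Δ and -0.25 in Med16-AID with the spike-in factors, neither called, and with library totals the Med16-AID and Mot1/Med16-AID calls were lost (both -0.32). The gene that rose in *med16*Δ was FRE7, at a log2 fold change of 0.66. That call was lost without WT replicate 1 or 2 or any *med16*Δ replicate, and with only the 2 groups compared. With unstranded counts FRE7 was -0.33 and called, the opposite direction.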

How the data were processed

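The authors labeled RNA with 4tU, prepared stranded total RNA libraries with an *S. pombe* spike-in, mapped reads to sacCer3 with STAR 2.6.1a and deposited raw counts per gene and strand for each library, without normalization. Here the sense-strand counts of 6692 *S. cerevisiae* genes were used, with the antisense-strand counts apart. The 10 genes, the other gene lists and the tests were chosen with earlier results of these data known.

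Counts were scaled with TMM factors over all 30 libraries, filtered with filterByExpr (5844 genes; 3497 for antisense counts, scaled with the sense factors) and tested with edgeR 4.0.16 (quasi-likelihood F-test, prior count 0.125), in 1 fit per set of files (12 and 18 libraries) with no covariate besides group. Adjusted p-values (Benjamini-Hochberg) cover all genes of a fit and were called under 0.05. Libraries held 3838508 to 6912702 counts, and intervals cover counting error only. "Rose" and "fell" mean past this threshold, and SEs are the log2 fold change divided by the root of the F statistic. Locus tags matched 6008 genes to RefSeq R64, and words were counted in the promoters of 6002. In RefSeq, MED16 and FRA2 are listed as SIN4 and BOL2.

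Named genes were the 10 genes, MED16 as a check of the labels, up to 4 genes with the largest change per other list and comparison, and the 5 genes most like the mean profile. VHT1 in Med15-AID and Med15/16-AID, CTR1 in Med15/16-AID, AFT1, MOT1 and LEU1 in Med16-AID with DMSO fall outside that rule and were named after their values were seen. The same holds for FET4, HMX1 and CCC2 in *med16*Δ. Alternatives were median-of-ratios scaling, library totals, spike-in size factors (recovered from the study's DESeq2 output, which is otherwise not used, for 4 of the 5 comparisons), the DESeq2 1.42.0 Wald test, a minimum of 10 counts in each library or none, only the 2 groups compared, all libraries in 1 fit, the replicate number as a block, unstranded counts and each library left out. Scripts were tested on simulated data. R 4.3.3, Python 3.11.15 and Biopython 1.88 were used.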

Additional observations from a re-analysis of the deposited data

Results flagged for a closer look

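The response of a gene to 1 treatment differed from its response to another, by a test of the difference itself over all genes (edgeR adjusted p under 0.05), in 12 cases. Since the genes were chosen with these sense counts known, the values are a description. For Med16-AID against *med16*Δ the log2 differences were -1.24 for ARN1, 0.63 for SIT1, 0.43 for ENB1, 0.67 for FET3 and -1.56 for FIT2. For Mot1/Med16-AID against Med15/16-AID they were 1.09 for ARN1, 0.39 for SIT1, -0.46 for ENB1, 0.70 for FET3, 0.91 for FTR1, -1.57 for FIT1 and 0.53 for FRE1.

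Counts on the antisense strand, outside the main measurement, were above the control cultures in 6 cases. In *med16*Δ the log2 fold changes were 4.42 for ARN1 (a fitted value against 3 counts in WT, which depends on the prior count), 1.52 for FET3, 1.70 for FTR1 and 2.6 for FRE3. In Med15/16-AID they were 1.03 for FET3 and 1.10 for FTR1. ARN1 passed the filter on low antisense counts only through its *med16*Δ libraries.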

How the results depend on the processing

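Of 785 log2 fold changes of the 10 genes under alternative settings, 729 moved by less than the spread between replicates, 56 moved by more and no called value changed sign. With the spike-in factors the genes called numbered 4 in *med16*Δ (main 7), 1 in Med16-AID (main 2), 7 in Med15-AID (main 4) and 2 in the difference between Med16-AID and *med16*Δ (main 5). With library totals they numbered 7 in Med15-AID and 6 in Med15/16-AID (main 3), and the other iron and metal genes called over the 5 comparisons numbered 140 against 86. In Med16-AID 1 was called with at least 10 counts in every library, which drops FIT1, and 1 with only the 2 groups. Scalings shift all genes together by construction. The cause of the other changes was not tested.

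Leaving out 1 library gave 7 to 7 calls in *med16*Δ, 0 to 2 in Med16-AID, 3 to 5 in Med15-AID, 3 to 4 in Med15/16-AID and 4 to 6 in Mot1/Med16-AID. It gave 3 to 5 for Med16-AID against *med16*Δ, where leaving out any WT culture or DMSO replicate 2 gave 3, 0 to 0 for Med15/16-AID against Med15-AID and 7 to 8 for Mot1/Med16-AID against Med15/16-AID. Between control groups it gave 5 to 7, 6 to 6 and 6 to 7 (main 7 each), for antisense counts 5 to 7 (main 6) and for the other lists 80 to 90. These fits, and the other scalings of control groups, antisense counts and differences, were chosen after seeing the data.

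With the replicate number as a block, 7, 2, 4, 3 and 5 genes were called in the 5 comparisons, as without it. Correlations of same-numbered libraries were -0.33 to 0.25, so the numbers are not taken as pairs. Depth limits FIT1 and the antisense counts most.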
